A study of Homo sapiens with 9 samples.

Results

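The genes described here are 9 that germinal centre B cells are known for: the surface molecules CD38, CD27 and MME, the adaptors GCSAM and STAP1, the receptor S1PR2 with the G protein subunit GNA13, and the transcription factors LMO2 and MYBL1. They were picked by name for that role, with earlier results of these data known, and every probe set of the array whose annotation names exactly 1 of them was taken. All 9 genes were measured, by 17 of the 54613 probe sets tested, among 19775 genes with a name. MYBL1 and GNA13 have 3 probe sets each, STAP1, LMO2, MME and S1PR2 have 2 each, and GCSAM, CD38 and CD27 have 1 each. The set is wider than surface molecules and adaptors alone, since it holds a G protein and a pair of nuclear factors.

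The cells were BL2, an established human Burkitt lymphoma line with features of malignant cells from the germinal centre, and as a single line it stands for 1 tumour. They were left untreated (control) or were treated for 6 hrs with recombinant human CD40 ligand (rhCD40L, 200 ng/ml) or with lipopolysaccharide of E. coli (LPS, given as 1 µM). The labels give no time for the untreated cells, and a matched incubation of 6 hrs is not established. If it was not matched, time in culture and stimulus cannot be told apart in the differences from control. CD40L is the signal that helper T cells give to B cells through CD40, and LPS is a bacterial glycolipid sensed by Toll-like receptor signalling. Total RNA of 3 experimental batches was hybridised to HG-U133 Plus 2.0 arrays, 1 array per condition and batch, which gives 9 arrays and n = 3 per condition. All cells, controls included, grew in RPMI with FCS.

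A germinal centre is the site in a lymphoid follicle where B cells divide, mutate their antibody genes and are selected with the help of T cells. Cells there express CD10 (MME) and CD38, carry adaptors that tune signals of the B cell receptor, and are held in the follicle by S1PR2, which signals through GNA13 against migration. Engagement of CD40 is among the signals that end the germinal centre state and prepare B cells for memory or plasma cell fate.

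Sequences upstream of 4 of the genes are shown. GCSAM and STAP1 are adaptors called lower (adjusted p at most 0.05) after both stimuli. CD38 and CD27 were called lower after CD40L than after LPS. Being lower after both stimuli was shared by CD38, MME and MYBL1. In the 17 alternatives run the LPS call of GCSAM was lost in 6. The direct calls of CD38 and CD27 were lost in 12 and 7. RefSeq windows on GRCh38.p14 were searched on both strands for TTCNNNGAA, the palindrome of STAT factors that BCL6 binds in part, for GGANNTTCC, a κB-like core, for GAGGAA, a core bound by PU.1 and related ETS factors, and for the E-box CANNTG. Capitals mark matches to the first 3 of these, and E-boxes are left in lower case. Each sequence runs 5′ to 3′ on the strand of its gene, from 250 bases before the annotated start site to 30 bases after it. The windows searched ran somewhat further downstream than shown, and every match given for these 4 genes lies in the shown part. GCSAM lies at chr3:112133219-112133498 on the minus strand, STAP1 at chr4:67558477-67558756, CD38 at chr4:15778078-15778357 and CD27 at chr12:6443642-6443921, the last 3 on the plus strand.
GCSAM: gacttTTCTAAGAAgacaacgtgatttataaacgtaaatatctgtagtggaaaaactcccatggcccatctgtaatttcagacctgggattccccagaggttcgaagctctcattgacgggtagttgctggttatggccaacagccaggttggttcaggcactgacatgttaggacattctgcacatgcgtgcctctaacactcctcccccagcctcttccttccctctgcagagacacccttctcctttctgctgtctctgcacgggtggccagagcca
STAP1: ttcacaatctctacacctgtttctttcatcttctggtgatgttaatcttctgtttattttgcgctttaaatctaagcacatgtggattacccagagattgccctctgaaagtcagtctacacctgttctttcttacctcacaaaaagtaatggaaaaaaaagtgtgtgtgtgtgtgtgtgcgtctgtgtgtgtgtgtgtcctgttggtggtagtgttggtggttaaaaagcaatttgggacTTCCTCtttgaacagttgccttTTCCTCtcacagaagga
CD38: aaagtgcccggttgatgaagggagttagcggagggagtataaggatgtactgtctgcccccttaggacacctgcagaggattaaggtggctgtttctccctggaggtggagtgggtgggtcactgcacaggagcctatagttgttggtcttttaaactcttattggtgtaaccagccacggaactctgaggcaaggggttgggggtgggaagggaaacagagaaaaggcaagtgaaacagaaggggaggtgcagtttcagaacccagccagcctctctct
CD27: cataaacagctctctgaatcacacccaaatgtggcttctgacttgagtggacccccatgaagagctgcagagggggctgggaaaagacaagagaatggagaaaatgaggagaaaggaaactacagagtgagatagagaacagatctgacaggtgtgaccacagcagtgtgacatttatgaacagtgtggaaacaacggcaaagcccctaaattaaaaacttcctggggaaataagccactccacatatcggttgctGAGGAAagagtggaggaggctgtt

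The window of GCSAM held TTCTAAGAA, which begins at position −245 from the start site. That of STAP1 held TTCCTC, which is GAGGAA on the other strand, at −9 and at 14. That of CD27 held GAGGAA at 7, and that of CD38 held none of the 3 marked motifs. E-boxes numbered 5 in STAP1, where those at −174 and −172 overlap, and 2 each in GCSAM, CD38 and CD27. Windows were given for 7 of the 9 genes, 11 in all, because MME has 4 and GNA13 has 2. Among all 35114 promoter windows of the same length as those searched, 7.66% held TTCNNNGAA, 4.57% GGANNTTCC, 27.9% GAGGAA and 68.7% CANNTG. Among the 11 windows, 1, 2, 3 and 9 held them, respectively. Both windows with GGANNTTCC are overlapping windows of MME that share the letters GGAACCTCC, a match on the other strand. A match of letters is a description and was not tested for binding.

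The deposited levels are on a generalised log2 scale, so that a difference of 1 is close to a doubling for bright probe sets and understates the change of dim ones. Array medians lay between 6.42 and 6.47, and replicates of a condition correlated at 0.994 to 0.997 across probe sets. Of 6 B cell markers 5 were measured, and all 5 had mean levels above 8 (8.83 to 13.0, highest for MS4A1). None of the 8 markers of T and NK cells (6.17 to 7.55), the 7 of monocytes and macrophages (5.88 to 6.67) or the 5 of fibroblasts (5.80 to 7.94) reached 8. Of 4 plasma cell markers 2 did, with JCHAIN at 12.7.

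After 6 hrs of CD40L 6 of the 9 genes were lower than in control: CD38, CD27, MME, GCSAM, STAP1 and MYBL1. By probe sets, 8 of 17 were lower and 1, of GNA13, was higher at an adjusted p of at most 0.05 (limma, Benjamini-Hochberg over all probe sets). The 8 are 47.1% of the 17, where 1.87% of all probe sets were lower. That share includes dim probe sets, while the 8 stood above 85.9% to 97.0% of all probe sets in control. A share at like levels was not computed. The single higher one is 5.88% of the 17, beside 3.71% of all probe sets higher. The fitted log2 differences of the 8 ran from −0.68 to −0.34, and each was below 0 in every batch (24 of 24 differences within a batch, −0.94 to −0.13). By the brightest probe set of each gene, 6 genes were lower and 0 higher, beside 2.92% and 5.03% of all genes. The median difference was −0.13 over the 17 probe sets and 0.0050 over all.

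After LPS 5 of these genes were called lower than in control: STAP1, MYBL1, CD38, MME and GCSAM. Only the calls of STAP1 held in all 17 alternatives run. Those of CD38 and MME 203435_s_at were lost in 7 each, that of GCSAM in 6 and that of MYBL1 in 2. The other probe sets of MME and MYBL1 did not pass after LPS. Of the 17 probe sets 6 were lower, which is 35.3%, beside 0.892% of all probe sets. None was higher (limma, 2 at an unadjusted p under 0.05), where 1.17% of all probe sets were. The 6 differences ran from −0.56 to −0.30 and all 18 differences within a batch were below 0 (−0.82 to −0.22). By brightest probe set 5 genes were lower and 0 higher, beside 1.48% and 1.62% of all genes. The median was −0.11 over the 17 probe sets and 0.0029 over all. Both comparisons share the same 3 control arrays, and the limit of level given for the CD40L share applies to the LPS share too.

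**Figure D1:**
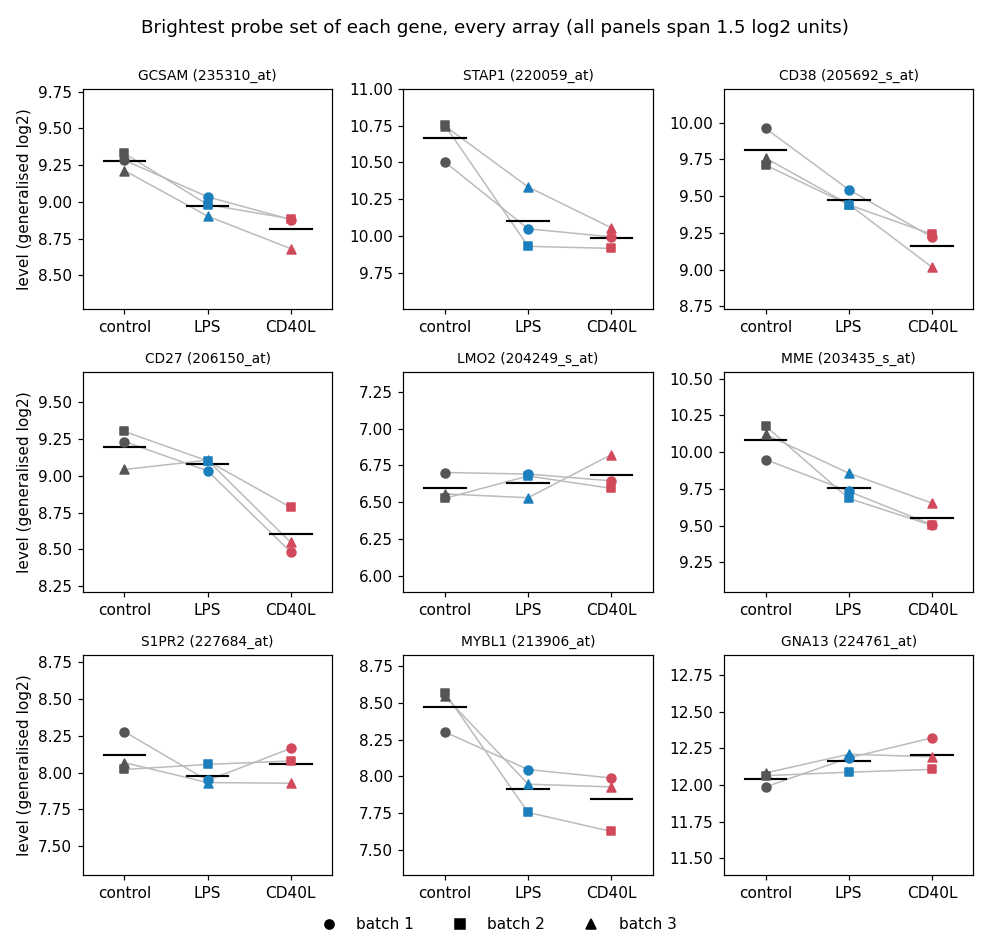
Level on the generalised log2 scale (vertical axis, each panel spanning the same height) of the brightest probe set of each gene on every array. Points are arrays, their shape gives the batch, grey lines join arrays of a batch and black bars are means of 3 arrays. The CD40L arrays of GCSAM, STAP1, CD38, CD27, MME and MYBL1 all lie below all 3 control arrays, while those of LMO2 and S1PR2 overlap them.

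CD38 is a surface enzyme that converts NAD to cyclic ADP-ribose and marks germinal centre B cells and plasma cells. Its probe set 205692_s_at stood at 9.96, 9.71 and 9.76 in the control arrays of batches 1 to 3, at 9.22, 9.24 and 9.02 after CD40L and at 9.54, 9.44 and 9.44 after LPS. The 3 conditions did not overlap, with LPS between control and CD40L. The fitted difference was −0.65 ± 0.064 (SE, n = 3) for CD40L (adjusted p = 9.61e-06), a level of 0.637 of the control. For LPS it was −0.33 ± 0.064 (adjusted p = 0.0106). The LPS call ended without batch 1, without batch 3, without control array 1 and without LPS array 1 or 2 (−0.34 to −0.29, adjusted p 0.0692 to 0.219). It also ended with no replicate block (adjusted p = 0.0901) and with the block as a random effect (adjusted p = 0.0562). That for CD40L held in every alternative run.

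CD27 is the receptor of the TNF receptor superfamily that binds CD70 and marks memory B cells. Its probe set 206150_at stood at 9.23, 9.30 and 9.04 in control, at 8.48, 8.79 and 8.55 after CD40L and at 9.03, 9.10 and 9.11 after LPS. The CD40L arrays lay below all others, and the LPS arrays overlapped the controls. The difference was −0.59 ± 0.068 for CD40L (SE, n = 3, limma adjusted p = 5.13e-05), a level of 0.665 of the control. For LPS it was −0.11 (95% interval −0.26 to 0.03, adjusted p = 0.61), with differences of −0.20, −0.20 and 0.064 within batches 1 to 3.

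MME is neprilysin or CD10, a zinc peptidase on the cell surface that marks germinal centre B cells and Burkitt lymphoma. Probe set 203435_s_at stood at 9.95, 10.18 and 10.12 in control, at 9.51, 9.50 and 9.65 after CD40L and at 9.73, 9.69 and 9.86 after LPS. The 3 conditions did not overlap. The difference was −0.53 ± 0.063 for CD40L (limma adjusted p = 6.79e-05) and −0.32 ± 0.063 for LPS (adjusted p = 0.0114, SE, n = 3). The LPS call ended when any of the batches or any of the LPS arrays was left out (−0.38 to −0.24, adjusted p 0.059 to 0.115).

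The other probe set of MME, 203434_s_at, stood at 9.99, 9.91 and 9.88 in control, at 9.59, 9.78 and 9.40 after CD40L and at 9.95, 9.83 and 9.66 after LPS. It was lower after CD40L (−0.34 ± 0.069, limma adjusted p = 0.00725), and for LPS the difference was −0.12 (95% interval −0.26 to 0.03, adjusted p = 0.598). Its CD40L call ended without batch 1 or 3 and without CD40L array 1 or 3 (−0.31 to −0.26, adjusted p 0.0766 to 0.142). With the replicate block as a random effect its adjusted p was 0.0566. Which transcripts of MME the probe sets read was not examined.

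GCSAM, also called HGAL, is an adaptor of germinal centre B cells that binds SYK after engagement of the B cell receptor and restrains cell movement. Its level was 9.28, 9.33 and 9.21 in control, 8.88, 8.88 and 8.68 after CD40L and 9.03, 8.98 and 8.90 after LPS (235310_at). No control array overlapped a stimulated one. After CD40L it fell by 0.46 ± 0.056 (SE, n = 3, limma adjusted p = 8.99e-05), to 0.727 of the control, and after LPS by 0.30 ± 0.056 (adjusted p = 0.0086). The LPS call ended without batch 1 or 3 and without any one of the LPS arrays (−0.33 to −0.28, adjusted p 0.0522 to 0.105), whereas the CD40L call held in every alternative run.

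STAP1 is an adaptor with PH and SH2 domains that is phosphorylated by the kinase TEC downstream of the B cell receptor. Its probe set 220059_at stood at 10.50, 10.75 and 10.75 in control, at 9.99, 9.91 and 10.05 after CD40L and at 10.05, 9.93 and 10.33 after LPS. Its other probe set 1554343_a_at stood at 10.01, 10.23 and 10.11, at 9.48, 9.51 and 9.53, and at 9.60, 9.51 and 9.71, in the same order. In both, every stimulated array lay below every control array.

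The fitted differences of STAP1 after CD40L were −0.68 ± 0.075 (220059_at, limma adjusted p = 3.27e-05) and −0.61 ± 0.065 (1554343_a_at, adjusted p = 2.5e-05). The first, the largest fitted decrease among the 17 probe sets, is a level of 0.624 of the control. After LPS they were −0.56 ± 0.075 (adjusted p = 0.000716) and −0.51 ± 0.065 (adjusted p = 0.00052). All 4 of these calls held in each of the 17 alternatives run.

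MYBL1 (A-MYB) is a transcription factor of the MYB family that is high in dividing germinal centre B cells. Its brightest probe set 213906_at stood at 8.30, 8.57 and 8.54 in control, at 7.99, 7.63 and 7.93 after CD40L and at 8.05, 7.75 and 7.95 after LPS. All stimulated arrays lay below all controls, and those of the stimuli overlapped each other. The difference was −0.62 ± 0.090 for CD40L (SE, n = 3, limma adjusted p = 0.000419), with −0.31, −0.94 and −0.62 within batches 1 to 3. For LPS it was −0.56 ± 0.090 (adjusted p = 0.00324), a call that ended without batch 3 (−0.53, adjusted p = 0.117) and without LPS array 3 (−0.53, adjusted p = 0.0503).

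The other probe sets of MYBL1 did not pass the test. 231268_at and 237014_at had levels between 6.06 and 6.85 on all arrays, near the median of all probe sets in control (6.45). Their differences were −0.045 (adjusted p = 0.865) and −0.072 (adjusted p = 0.67) for CD40L, so the call of this gene rests on 1 of its 3 probe sets.

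LMO2 is a LIM-only protein that bridges DNA-binding factors and is a marker of germinal centre B cells and their lymphomas. Its brightest probe set 204249_s_at stood at 6.70, 6.53 and 6.56 in control, at 6.64, 6.59 and 6.82 after CD40L and at 6.69, 6.68 and 6.53 after LPS. These levels are close to the array median and the conditions overlapped. The difference was 0.093 for CD40L (95% interval −0.06 to 0.24, adjusted p = 0.634) and 0.038 for LPS (−0.11 to 0.19, adjusted p = 0.928). The second probe set 231049_at, at 5.90 to 6.13 on all arrays, gave 0.099 (adjusted p = 0.441) and 0.039 (adjusted p = 0.897). At levels this low a change may not be detectable.

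S1PR2 is the sphingosine-1-phosphate receptor that confines B cells to the germinal centre. 227684_at stood at 8.28, 8.02 and 8.07 in control, at 8.17, 8.08 and 7.93 after CD40L and at 7.95, 8.06 and 7.93 after LPS, and the conditions overlapped. Its differences were −0.065 (95% interval −0.21 to 0.08, limma adjusted p = 0.763) and −0.14 (−0.29 to −0.001, adjusted p = 0.425). The dimmer 208537_at gave −0.13 (−0.25 to 0.003, adjusted p = 0.334) and −0.083 (−0.21 to 0.05, adjusted p = 0.705).

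GNA13 encodes the G protein subunit through which S1PR2 acts on RHOA, and is often mutated in germinal centre lymphomas. Its brightest probe set 224761_at stood at 11.99, 12.06 and 12.08 in control, at 12.32, 12.11 and 12.19 after CD40L and at 12.18, 12.09 and 12.21 after LPS. All stimulated arrays lay above all controls, yet the differences did not pass the test, at 0.16 (95% interval 0.03 to 0.30, adjusted p = 0.184) and 0.12 (−0.02 to 0.25, adjusted p = 0.532). For 227539_at the differences were 0.14 (adjusted p = 0.32) and 0.15 (adjusted p = 0.382).

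The third probe set of GNA13, 206917_at, stood at 8.67, 8.21 and 8.27 in control, at 9.21, 8.81 and 8.32 after CD40L and at 8.96, 8.82 and 8.30 after LPS. Array 1 was the highest of each condition, and the conditions overlapped. It passed the test after CD40L (0.40 ± 0.092, limma adjusted p = 0.0165), with 0.54, 0.60 and 0.052 within batches 1 to 3. The call ended without batch 1, without control array 1 and without CD40L array 1 or 2 (0.32 to 0.37, adjusted p 0.0771 to 0.23). It also ended with no replicate block (adjusted p = 0.485). After LPS the difference was 0.31 (adjusted p = 0.109), and 0.47 without control array 3 (adjusted p = 0.00547).

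**Figure D2:**
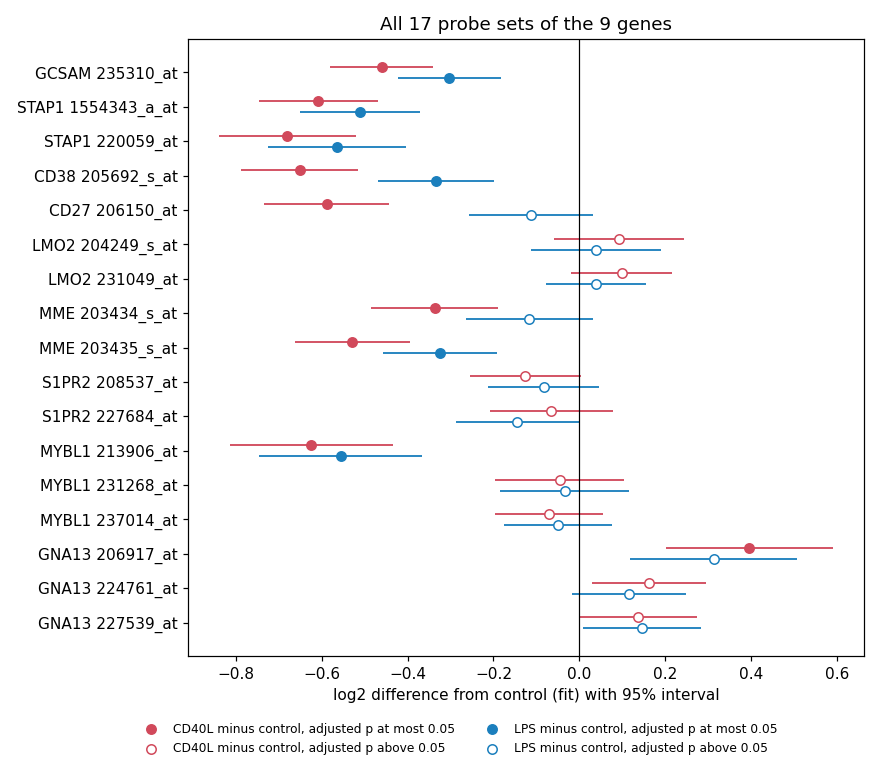
Fitted log2 difference from control (horizontal axis) with its 95% interval for all 17 probe sets, after CD40L (red) and after LPS (blue). Filled points passed an adjusted p of 0.05: 8 lie below 0 and 1, of GNA13, above 0 after CD40L, and 6 lie below 0 after LPS.

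Set directly against each other, CD40L and LPS differed at an adjusted p of at most 0.05 for the surface molecules CD27 and CD38. Both were lower after CD40L than after LPS. MME, also a surface molecule, did not pass. The CD38 call was lost in 12 of 17 alternatives and the CD27 call in 7. These 2 probe sets are 11.8% of the 17, beside 0.0952% of all probe sets lower in this comparison. None was higher (limma, 0 at an unadjusted p under 0.05), where 0.3% of all probe sets were. By brightest probe set the 2 genes stand beside 0.152% of all genes lower and 0.491% higher. The median difference was −0.042 over the 17 probe sets and 0.0049 over all.

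For CD27 the differences within batches 1 to 3 were −0.55, −0.32 and −0.56. The fitted difference was −0.48 (95% interval −0.62 to −0.33, limma adjusted p = 0.00261). This call ended without batch 1 or 3 and without array 1 or 3 of either stimulus (−0.48 to −0.41, adjusted p 0.0518 to 0.162). For CD38 they were −0.32, −0.20 and −0.43, and the fitted difference was −0.32 (−0.45 to −0.18, adjusted p = 0.0411). That call ended without batch 1 or 3, without CD40L array 1 or 3 and without any of the LPS arrays (−0.34 to −0.26, adjusted p 0.169 to 0.8). It also ended with no replicate block (adjusted p = 0.34), with the block as a random effect (0.216), with median centring (0.068), with probe sets above the median level only (0.0581) and with eBayes trend and robust (0.0751), which makes 12 of 17 alternatives.

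The adaptors and MYBL1 did not pass this direct test. For STAP1 the differences were −0.12 (95% interval −0.28 to 0.04, 220059_at) and −0.097 (−0.24 to 0.04, 1554343_a_at), for MYBL1 −0.068 (−0.26 to 0.12) and for GNA13 206917_at 0.083 (−0.11 to 0.28), each with a limma adjusted p of 0.999. For GCSAM it was −0.16 (−0.28 to −0.04, adjusted p = 0.692). For MME the differences were −0.20 (−0.34 to −0.07, adjusted p = 0.435) and −0.22 (−0.37 to −0.07, adjusted p = 0.471). The intervals of GCSAM and MME lie below 0 before adjustment over all probe sets. The 203434_s_at value of MME passed without batch 2 (−0.31, adjusted p = 0.0370).

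**Figure D3:**
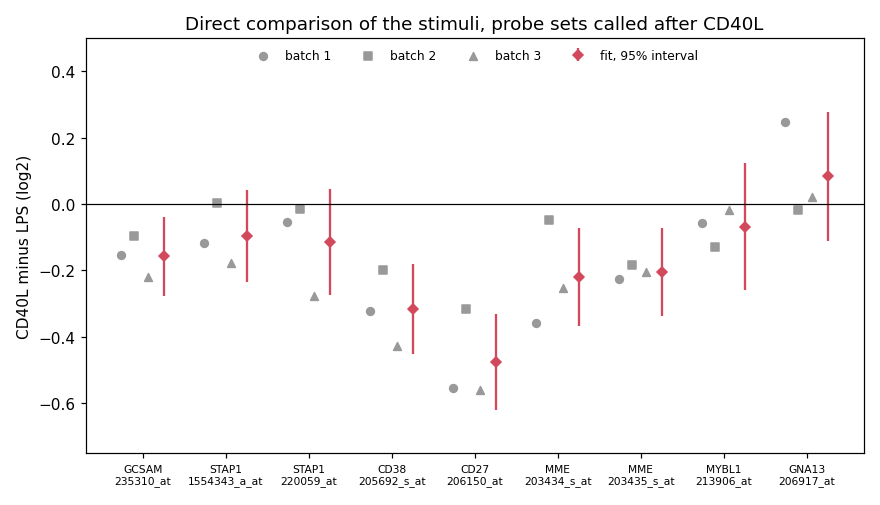
CD40L minus LPS (vertical axis, log2) for the 9 probe sets called after CD40L. Grey symbols are the differences within each batch and red diamonds the fitted difference with its 95% interval. CD27 lies lowest, and the intervals of STAP1, MYBL1 and GNA13 include 0.

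Some markers of B cells were lower as well. The summed level of the 5 measured markers was 53.3 to 54.0 in control, 52.7 to 52.9 after CD40L and 53.1 to 53.4 after LPS, where the LPS range overlaps that of the control. After CD40L 3 of the 5 were lower (CD22, CD79A and CD79B), and after LPS 1 was (CD79A), while MS4A1 and PAX5 did not pass. Over all genes 2.92% were lower after CD40L and 1.48% after LPS. MS4A1 differed by −0.036 after CD40L and −0.066 after LPS (limma adjusted p = 0.883 and 0.805), and PAX5 by 0.39 and 0.31 (adjusted p = 0.107 and 0.339). The summed levels of the other marker lists overlapped between conditions. The part of these differences in the results was not tested. In bulk RNA, fewer cells that express a gene and less RNA of it per cell cannot be told apart.

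The adaptors GCSAM and STAP1 act close to the B cell receptor, and 22 of 24 listed genes of its proximal signalling were measured. After CD40L 8 of these were lower and 4 higher by brightest probe set, beside 2.92% and 5.03% of all genes. After LPS 5 were lower and 2 higher, beside 1.48% and 1.62%. The list median was −0.030 after CD40L and −0.041 after LPS, beside 0.0051 and 0.0018 over all genes. PIK3CD, the catalytic p110 delta subunit of PI3 kinase, rose most after CD40L, from 9.73, 9.68 and 9.76 to 10.56, 10.52 and 10.67 (0.86, adjusted p = 2.21e-07). It also rose after LPS (0.35, adjusted p = 0.00384) and was higher after CD40L than after LPS (0.51, adjusted p = 0.000341).

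The inhibitory Fc receptor FCGR2B fell by 0.53 after CD40L (limma adjusted p = 2.41e-05), and the lectin CD22, another inhibitory receptor, fell by 0.455 (adjusted p = 0.000152). FCGR2B was lower after LPS too (−0.31, adjusted p = 0.00924), and its direct difference between the stimuli did not pass (−0.23, adjusted p = 0.176). INPP5D, the phosphatase SHIP1, rose by 0.50 after CD40L (adjusted p = 0.00276). After LPS the largest decreases on the list were those of the phospholipase PLCG2 (−0.39, adjusted p = 0.00164), of CD79A, the signalling chain of the receptor (−0.38, adjusted p = 0.00136), and of the kinase BLK (−0.36, adjusted p = 0.00802), and these 3 were lower after CD40L too (−0.45 to −0.33). SYK, the partner of GCSAM, fell by 0.29 after CD40L (adjusted p = 0.0064) and differed by −0.070 after LPS (adjusted p = 0.757). TEC, the kinase that acts on STAP1, differed by 0.17 after CD40L (adjusted p = 0.111).

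Of the ligands and partners of CD27 and CD38, 8 of 10 were measured. After CD40L 1 was higher and 2 were lower, beside 5.03% and 2.92% of all genes. After LPS 1 was lower, beside 1.48%. CD70, the ligand of CD27, stood at 9.01, 8.98 and 9.02 in control, at 9.39, 9.24 and 9.18 after CD40L and at 8.92, 8.85 and 9.00 after LPS. It rose after CD40L (0.27, limma adjusted p = 0.0179) and was higher after CD40L than after LPS (0.35, adjusted p = 0.0181), where CD27 was lower in both comparisons. PECAM1, a ligand of CD38, went from 7.57, 7.56 and 7.50 in control to 6.92, 7.09 and 7.05 after CD40L and to 7.08, 7.09 and 7.01 after LPS. It fell after both stimuli (−0.52, adjusted p = 3.83e-05, and −0.48, adjusted p = 0.000363). TRAF5, an adaptor of CD27, fell after CD40L (−0.23, adjusted p = 0.0447). Of 6 relatives of MME, none passed the test in any comparison.

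Around S1PR2 and GNA13, 21 of 22 listed genes of follicular confinement were measured and 0 passed the test after CD40L. After LPS 1 did, the receptor S1PR4 (−0.25, limma adjusted p = 0.0443). P2RY8, another receptor that couples to GNA13, differed by 0.17 after CD40L (adjusted p = 0.116), and S1PR1, which draws B cells out of the follicle, by 0.12 (adjusted p = 0.566). S1PR1 had a mean of 6.63, near the array median, where a change may not be detectable. The list medians were 0.030 and 0.0081. Over all genes 2.92% were lower and 5.03% higher after CD40L, and 1.48% and 1.62% after LPS.

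Among the partners of LMO2 all 13 were measured. After CD40L 1 was higher and 1 lower, beside 5.03% and 2.92% of all genes. SSBP3, which binds the adaptor LDB1, rose after CD40L (0.31, limma adjusted p = 0.00344), the LIM-only gene LMO4 fell (−0.27, adjusted p = 0.046), and after LPS 0 passed by brightest probe set. Among the MYB family and its DREAM complex partners 0 of 11 passed after either stimulus by brightest probe set. MYB itself differed by 0.24 after CD40L (adjusted p = 0.0515) and MYBL2 by 0.10 (adjusted p = 0.463), where MYBL1 was lower. With the probe set of largest change of each gene, 2 genes of this list passed after each stimulus, E2F4 and RBBP4, both higher.

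In the wider germinal centre programme, 33 of 36 listed genes were measured, CD22 and PTPN6 being on the receptor list too. After CD40L 7 were lower and 2 higher, beside 2.92% and 5.03% of all genes. After LPS 7 were lower and 0 higher, beside 1.48% and 1.62%. The medians of the list were −0.043 and −0.045. IRF8, a transcription factor of germinal centre B cells, had the largest decrease, from 10.92, 11.11 and 11.11 to 10.19, 10.05 and 10.13 after CD40L (−0.92, limma adjusted p = 5.67e-07). It fell less after LPS (−0.43, adjusted p = 0.00347), and the direct difference was −0.50 (adjusted p = 0.00226). VPREB3 fell after both (−0.59, adjusted p = 1.27e-05, and −0.32, adjusted p = 0.00916), as did BCL6, the repressor that maintains the germinal centre state (−0.47, adjusted p = 0.00021, and −0.31, adjusted p = 0.0144).

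SPIB, an ETS factor of B cells, rose after CD40L (0.56, limma adjusted p = 0.00117). POU2AF1, a coactivator needed for germinal centres, fell after LPS (−0.34, adjusted p = 0.0142) and was higher after CD40L than after LPS (0.38, adjusted p = 0.0189). EBF1, a B lineage factor, fell after CD40L (−0.43, adjusted p = 0.00264) and after LPS (−0.34, adjusted p = 0.0307).

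Of 21 genes linked to exit from the germinal centre and to activated B cells, all measured, 5 were higher and 2 lower after CD40L, and 3 were higher and 0 lower after LPS. Among all genes by brightest probe set, the CD40L comparison called 5.03% higher and 2.92% lower. The LPS comparison called 1.62% higher and 1.48% lower. The list medians were 0.025 for CD40L and 0.057 for LPS, where those of all genes were 0.0051 and 0.0018. ELL2, an elongation factor of antibody-secreting cells, rose by 1.47 after CD40L (limma adjusted p = 8.72e-09) and by 0.54 after LPS (adjusted p = 0.00056). BATF rose by 1.06 (adjusted p = 9e-08) and 0.70 (adjusted p = 5.67e-05), and IRF4, a regulator of plasma cell fate, by 0.46 (adjusted p = 0.00176) and 0.58 (adjusted p = 0.000766). On the same list the plasma cell markers PRDM1, SDC1 and JCHAIN, and also XBP1, did not pass after either stimulus. After CD40L they differed by 0.019, 0.13, −0.12 and −0.18 (limma adjusted p = 0.948, 0.322, 0.438 and 0.0899). SDC1 and XBP1 had means of 6.44 and 6.36, near the array median, where a change may not be detectable. CD83, an activation marker of the cell surface, fell after CD40L (−1.02, adjusted p = 9.52e-08) and differed by −0.041 after LPS (adjusted p = 0.905). In the direct comparison ELL2 (0.93, adjusted p = 7.55e-06), BATF (0.36, adjusted p = 0.0181) and the chemokine receptor CCR7 (0.60, adjusted p = 0.000722) were higher after CD40L, and CD83 was lower (−0.98, adjusted p = 3.33e-06). Against control CCR7 was higher after CD40L (0.43, limma adjusted p = 0.00189) and differed by −0.17 after LPS (adjusted p = 0.376).

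**Figure D4:**
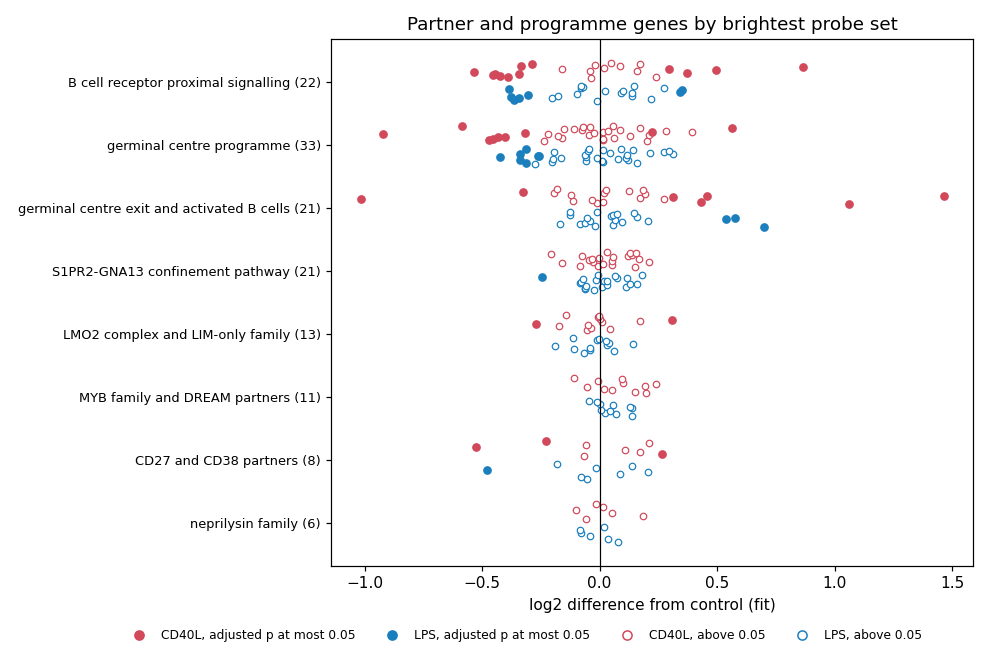
Fitted log2 difference from control (horizontal axis) of the partner and programme genes, 1 point per gene and stimulus by its brightest probe set, with the number of genes measured in brackets. Filled points passed an adjusted p of 0.05. The receptor and germinal centre lists hold most of the filled points below 0, while the S1PR2-GNA13 list has 1 filled point and the MYB and neprilysin lists have none.

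The genes whose levels followed each member most closely over the 9 arrays were picked from 12629 named genes above the median level, by Pearson correlation as a description. The arrays come from 3 conditions and 3 batches that all genes share, and no p is given. CD38 was followed by VPREB3 (0.992), SMAD1 (0.982) and SLAMF6 (0.980), and GCSAM by ADGRL2, H1-10 and SMAD1 (each 0.975). STAP1 was followed by CERK (0.988), PPP2R5A (0.982) and INPP5B (0.979), and MME by INPP5B (0.989), ENPP3 (0.983) and MALL (0.972). CD38 and GCSAM thus had SMAD1 in common, and STAP1 and MME had INPP5B. SMAD1, a mediator of BMP signals, fell by 1.13 after CD40L and by 0.59 after LPS (limma adjusted p = 7.83e-08 and 0.000189).

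CD27 was followed by UBALD2 (0.977), ITGB1 (0.962) and PPP2R5C (0.960), and MYBL1 by RBM33-DT (0.975), TRIM38 (0.969) and FBH1 (0.960). The members that did not pass the test by brightest probe set had S1PR2 with PYCR1 (0.960), KDM5A (0.953) and IFT172 (0.944), GNA13 with GUSB (0.954), AURKB (0.935) and ZDHHC16 (0.924), and LMO2 with FHDC1 (0.895), ERICH1-AS1 (0.864) and DNAH5 (0.863). None of these last 9 neighbours passed the test after either stimulus.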

How the data were processed

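BL2 cells were untreated or treated for 6 hrs with CD40L or LPS, and 9 HG-U133 Plus 2.0 arrays were analysed (3 per condition, 1 in each of 3 batches). The authors applied variance stabilisation for background and scale, combined the probes of each set by median polish, and deposited generalised log2 values, which were used as given. The number of arrays limits the precision. Doses come from the study's methods.

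Of 54675 probe sets 62 AFFX controls were left out. The annotation names 1 gene for 41091 of the rest, several for 1801 and none here for 11721. Of the names, 41037 were matched by Entrez identifier to RefSeq symbols and 54 were kept. Differences were fitted with limma 3.58.1 (lmFit, eBayes) in R 4.3.3 with condition and batch as terms (4 residual and 11.6 prior degrees of freedom). Two-sided p-values were adjusted after Benjamini-Hochberg over 54613 probe sets, with 0.05 as the threshold. The sample titles number the batches, so arrays of a number were treated as paired. Residuals around condition means correlated on average at 0.217 for pairs that share a number (−0.181 to 0.466, 7 of 9 pairs over 0.1). The negative values were those of control 2, with CD40L 2 (−0.181) and with LPS 2 (−0.040). That control array correlated at 0.382 with CD40L 3 and at 0.323 with LPS 3, so its pairing is not borne out by the values. An exact permutation test of 3 arrays against 3 cannot go below 0.1, and none was used. The fit was also run on simulated data with independent noise between arrays, which cannot show how the calls here depend on single batches or arrays.

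The 9 genes, the 8 lists of partner and programme genes and the marker lists were chosen with earlier results of these data known. A gene of a list was measured by its brightest probe set. All members are named, and of each list at most 4 genes of largest difference among those past the threshold in a comparison, plus MYB, MYBL2, CD70, S1PR1, P2RY8 and SYK, and the 3 nearest neighbours of each member. TEC, single marker genes, XBP1, E2F4 and RBBP4 were named after their values were seen. Alternatives were no replicate block or a random one (duplicateCorrelation, statmod 1.5.0, consensus correlation 0.0724), fits on the compared groups alone, median centring or quantile normalization, probe sets above the median level, AFFX probe sets kept, eBayes with trend and robust, the probe set of largest change per gene, and each batch and array left out. Protein sequences and the promoters of LMO2 and MYBL1 are not reported here.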

Additional observations from a re-analysis of the deposited data

How the results depend on the processing

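The count of 8 probe sets lower after CD40L stayed between 7 and 8 in all 17 alternatives, MME 203434_s_at being the one lost. The single probe set higher after CD40L (GNA13 206917_at) became 0 with no replicate block and 0 with the replicate block as a random effect, and ranged from 0 to 1 with batches or arrays left out. The 6 lower after LPS became 3 with no replicate block and ranged from 2 to 6 with batches or arrays left out, and the 0 higher after LPS ranged from 0 to 1. The 2 lower after CD40L than after LPS became 0 with no replicate block and 1 each with the block as a random effect, with median centring, with probe sets above the median level only and with eBayes trend and robust, and ranged from 0 to 3 with batches or arrays left out. The count of 0 higher after CD40L than after LPS was 0 in every alternative run. For single member probe sets 806 of the recomputed results kept direction and side of the threshold, 53 lost a call and 2 gained one, and none reversed. The replicate block is the paired design, and without it GCSAM (adjusted p = 0.0713), CD38 (0.0901) and MME 203435_s_at (0.076) lost their LPS calls, CD38 (0.34) and CD27 (0.0588) their direct calls, and MME 203434_s_at (0.0878) and GNA13 206917_at (0.485) their CD40L calls. With the block as a random effect MME 203434_s_at (0.0566) and GNA13 206917_at (0.382) lost their CD40L calls, and CD38 its LPS call (0.0562) and its direct call (0.216). Where a single array was left out, the remaining arrays of that condition were taken to vary like the others.

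Over all probe sets, 2027 higher and 1022 lower after CD40L (66.5% higher) became 1707 and 1694 (50.2%) with quantile normalization 884 and 562 with no replicate block, 1112 and 677 with it as a random effect and 1122 and 676 with only the groups compared, and ranged from 812 to 2517 and from 449 to 1332 with batches or arrays left out. After LPS, 637 and 487 (56.7% higher) became 775 and 870 (47.1%) with quantile normalization, 156 and 166 with no replicate block and 247 and 248 with it as a random effect, and ranged from 147 to 856 and from 115 to 722 (41.6% to 71.6% higher) with batches or arrays left out. In the direct comparison, 164 and 52 became 64 and 9 with no replicate block, 81 and 16 with it as a random effect, 387 and 161 with only the groups compared and 183 and 89 with quantile normalization, and ranged from 29 to 196 and from 5 to 102 with batches or arrays left out. The cause was not tested. No scaling moved the median of all probe sets by as much as 0.1. With the probe set of largest change per gene, 12 of 84 list counts moved by over 1.5 times. Levels near the array median, as for LMO2, limit what can be seen.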
